A study of Mus musculus with 2 samples.

Results

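The genes described here are Shh, Ptch1, Hhip, Smo, Boc, Cdon, Gli1, Gli2 and Gli3 of the Hedgehog pathway, which are 9 of the 32285 genes counted in both libraries. They were chosen by symbol, without use of their levels, and held 121611 of the 55115992 UMIs of the kept cells. All 9 were detected in both libraries. The data are single-cell RNA counts from whole mouse embryos at embryonic day 9.5, with transcripts captured by their 3′ ends and counted by unique molecular identifiers (UMIs). There was 1 library of wild-type embryos and 1 of embryos lacking Usb1 in every cell (Usb1-null), by a germline deletion of its first exons made with CRISPR/Cas9 and bred from heterozygous parents. Usb1 encodes a nuclease that trims the tail of U6 small nuclear RNA. The sources used here do not give the number of embryos in a library. The labels speak of nuclear RNA, whereas the protocol describes dissociated cells.

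With 1 library per genotype no difference has a replicate check, and no test was made. Levels are UMIs per 1000000 UMIs (CPM). Of paired values the first is wild-type and the second Usb1-null, and brackets hold exact 95% intervals, which cover counting error only. The libraries had 15161 and 13018 kept cells, with medians of 1243 and 2299.5 UMIs. They also differed in sex, with Xist at 2451 and 0.779 CPM and the Y-linked genes Ddx3y, Eif2s3y, Kdm5d and Uty together at 0.644 and 703 CPM. Globin genes summed to 815 and 185 CPM. Genotype, sex and depth cannot be told apart. A total of 61 barcodes occurred in both libraries.

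Hedgehog ligands are secreted proteins that pattern the embryo. Patched1, the product of Ptch1, holds the membrane protein Smoothened inactive until ligand binds, after which Smoothened acts through the primary cilium to turn Gli transcription factors from repressors into activators. At midgestation the notochord, the floor plate of the neural tube and the gut endoderm are known sources of Sonic hedgehog, and the ventral neural tube, the sclerotome and the mesoderm around the gut are known to respond. Ptch1, Hhip and Gli1 are themselves switched on by the pathway and serve as its readout.

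To show a start of the feedback genes Ptch1 and Hhip, the 250 bases ahead of the start that the RefSeq table takes for each are given 5′ to 3′ for GRCm38.p6, with each CG dinucleotide in capitals. They lie at chr13:63565736-63565985 for Ptch1 and chr8:80058009-80058258 for Hhip, both on the minus strand. Windows were matched for 6 of the 9 genes, namely Ptch1, Hhip, Smo, Cdon, Gli2 and Gli3. Those of Ptch1, Cdon and Gli3 lie inside the gene spans given below from GENCODE, downstream of the outermost start, whereas those of Hhip, Smo and Gli2 lie ahead of it.
Ptch1: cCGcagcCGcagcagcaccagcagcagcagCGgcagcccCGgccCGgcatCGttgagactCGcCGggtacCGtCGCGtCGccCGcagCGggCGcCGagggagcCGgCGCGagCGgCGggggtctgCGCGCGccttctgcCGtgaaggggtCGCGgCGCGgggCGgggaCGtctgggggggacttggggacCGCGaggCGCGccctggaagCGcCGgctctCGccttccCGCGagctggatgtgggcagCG
Hhip: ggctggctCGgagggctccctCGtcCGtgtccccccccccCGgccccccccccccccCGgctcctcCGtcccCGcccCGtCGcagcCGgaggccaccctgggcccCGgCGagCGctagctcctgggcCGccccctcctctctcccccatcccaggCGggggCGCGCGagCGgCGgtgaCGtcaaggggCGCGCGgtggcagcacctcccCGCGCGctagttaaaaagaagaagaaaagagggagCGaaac
The Ptch1 stretch held 41 CG dinucleotides and was 78.4% G and C, and the Hhip stretch held 28 and was 76.0% G and C, against a median of 52.4% over all 32851 windows. The other stretches ranged from 42.8% in Cdon to 72.8% in Gli3. The Gli-binding motif GACCACCCA was searched on both strands (TGGGTGGTC on the reverse) in the full windows of 300 bases. It was in 0 of the 6 windows, in 0 of 34 windows of other pathway genes and in 83 of all windows (0.253%), which says only that these letters are not in these windows.

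Cells were sorted into 27 clusters without using the 9 genes or 43 other pathway genes, so that their levels did not define the clusters. Sources were sought with Foxa2, a transcription factor of the notochord, floor plate and gut, which was raised in clusters 16 and 18. Raised here means at 2 or more times the level of all other cells in both libraries. Cluster 16 (296 and 312 cells) was floor plate-like, with 7 of 9 markers raised. They included the axon guidance gene Ntn1, at 2304 and 1947 CPM against 291 and 259 CPM in all other cells, and Foxa2, at 70.4 and 104 CPM against 3.98 and 4.24 CPM. Cluster 18 (220 and 331 cells) had 10 of 12 gut and pharyngeal endoderm markers raised and Foxa2 at 59.2 and 43.8 CPM against 4.39 and 5.58 CPM. Foxa2 is on both marker lists and is how these clusters were found, so its level is no separate support for their identity. Since Afp and Rbp4 of the yolk sac and hepatic list were among the 10 leading genes of cluster 18, it keeps its number.

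A further small cluster, 24 (22 and 25 cells), was node and notochord-like. Its name rests on the notochord factor T, at 578 and 539 CPM against 1.29 and 2.55 CPM elsewhere, and on Sox9 and Col2a1. Of the other markers on that list Chrd and Foxj1 were at 0 in both libraries, and Foxa2 had 0 and 2 UMIs. Cluster 24 was added to the sources after its values were seen.

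Shh, the ligand (ENSMUSG00000002633, chr5:28456815-28467256, minus strand, in GRCm38), was concentrated in these 3 clusters. In the node and notochord-like cluster 24 it reached 550.04 CPM (336 to 849) and 727 CPM (546 to 949). Floor plate-like cluster 16 followed with 201 CPM (159 to 250.2) and 229.9 CPM (198 to 266), and cluster 18 with 96.5 CPM (65.6 to 137) and 93.9 CPM (75.3 to 116). All cells outside these held 4.39 and 6.91 CPM. In either library the intervals of the 3 clusters were apart from one another and from every cluster with at least 100 cells per library.

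Over the cells outside the sources, the fold of Shh was 125 (73.2 to 205) and 105 (76.7 to 142) for cluster 24, 45.8 (33.5 to 62.5) and 33.3 (27.2 to 40.7) for cluster 16 and 22.0 (14.2 to 33.4) and 13.6 (10.5 to 17.5) for cluster 18. Clusters 16 and 18, with 3.40% and 4.94% of the cells, held 49.8% (43.0 to 56.5) and 50.1% (45.8 to 54.4) of the Shh UMIs. With cluster 24 the shares were 58.7% (52.0 to 65.3) and 60% (55.8 to 64.1). A Shh UMI was found in 13 of 22 and 19 of 25 cells of cluster 24.

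**Figure D1:**
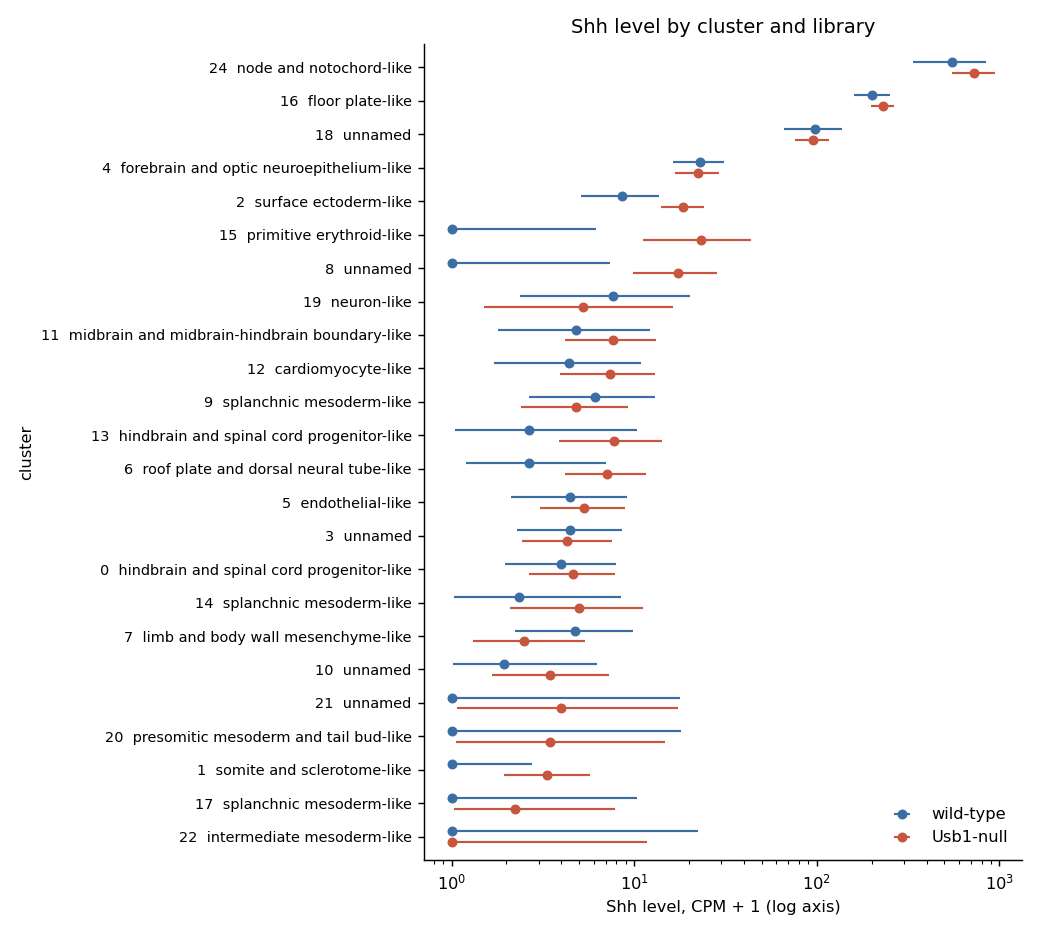
Shh level (CPM + 1, log axis) in the 23 clusters with 100 or more cells in both libraries and in cluster 24, with points for the wild-type and Usb1-null libraries and bars for exact 95% counting intervals. Clusters 24, 16 and 18 stood above all others, from 550.04 and 727 CPM down to 96.5 and 93.9 CPM.

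The remaining Shh UMIs, 92 and 218, were spread thinly. The forebrain and optic neuroepithelium-like cluster 4 held 37 and 50 of them, at 21.9 CPM (15.4 to 30.2) and 21.2 CPM (15.8 to 28.0). The surface ectoderm-like cluster 2 held 14 and 50, at 7.55 CPM (4.13 to 12.7) and 17.5 CPM (13.0 to 23.0). Among the 23 larger clusters, which had 100 or more cells in both libraries, 7 had 0 Shh UMIs in wild-type and 1 in Usb1-null. Primitive erythroid-like cells, blood cells not known to make Shh, give the background level. They held 0 CPM (0 to 5.22) and 22.3 CPM (10.2 to 42.4), the latter on 9 UMIs in 3 cells. Called doublets were 23.96% and 9.474% of these cells, and without them the level was 0 and 14.5 CPM, 5 of the 9 UMIs remaining. The Usb1-null levels of clusters 4 and 2 lay within the background interval, whereas their wild-type levels lay above it, with an overlap of intervals for cluster 2. That interval takes UMIs as independent, although the 9 came from 3 cells. Without called doublets both Usb1-null levels lay above the background level of 14.5 CPM, but within its interval (4.71 to 33.9).

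A Shh UMI was present in 0 of 601 erythroid-like wild-type cells, which puts the upper limit of the share at 0.612%, and in 3 of 190 Usb1-null cells, or 1.58% (0.327 to 4.54), at median depths of 838 and 1725.5 UMIs. Over all cells the share was 1.22% (1.05 to 1.41) and 2.79% (2.51 to 3.09), and 0.521% (0.413 to 0.649) and 0.799% (0.653 to 0.967) once each cell was thinned to 500 UMIs. In cluster 16, with median depths of 1178 and 2301 UMIs, it was 21.3% (16.8 to 26.4) and 35.3% (29.96 to 40.8), and 8.78% (5.82 to 12.6) and 11.5% (8.21 to 15.6) when thinned. At equal depth the intervals of the libraries overlapped in cluster 16.

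Clustering the cells of clusters 16 and 18 again gave 10 subclusters, of which those with the highest Shh levels were not the one with the highest Ptch1 level. The floor plate-like subclusters s2 and s8 had the highest Shh, at 294 CPM (203 to 410.2) and 418 CPM (336 to 514) in s2 and 317 CPM (158 to 567) and 421 CPM (273 to 622) in s8. Their Ptch1 was 932 and 1009 CPM and 778 and 1331 CPM. The floor plate-like subcluster s6 (39 and 42 cells), whose leading genes included Slit1, Epha5 and Rfx4, had the highest Ptch1, 3454 CPM (2938 to 4034) and 3545 CPM (3186 to 3933). Shh was 174 CPM (75.0 to 342) and 79.7 CPM (34.4 to 157) there. In wild-type that interval overlapped those of s2 and s8, and in Usb1-null it lay apart from them.

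In subcluster s1, also floor plate-like, Shh was 69.8 CPM (30.1 to 138) and 58.9 CPM (31.4 to 101) and Ptch1 1684 and 1962 CPM. The gut-like subcluster s3 had Shh at 168 CPM (99.4 to 265) and 201 CPM (139 to 281) and Ptch1 at 596 and 905 CPM. Subcluster s4 (44 and 48 cells) had 6 floor plate and 5 midbrain markers raised and was left unnamed. Its Ptch1 was 1016 CPM (779 to 1302) and 2508 CPM (2249 to 2789.8), a Usb1-null to wild-type ratio of 2.47 (1.88 to 3.29). Its Shh was 279 CPM (162 to 446) and 317 CPM (230 to 427), a ratio of 1.14 (0.636 to 2.13). These Shh intervals overlapped those of s2 and s8, and the Ptch1 levels lay above theirs in both libraries. Subcluster s4 was singled out after its values were seen.

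**Figure D2:**
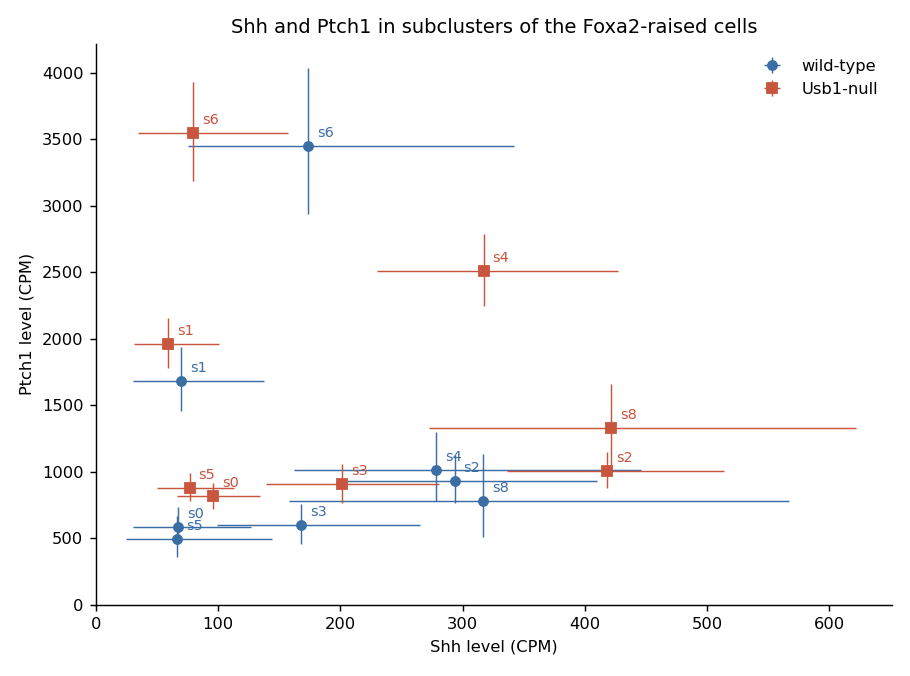
Shh level (x, CPM) against Ptch1 level (y, CPM) in the subclusters of clusters 16 and 18 with 20 or more cells in both libraries, with points for the wild-type and Usb1-null libraries and bars for exact 95% counting intervals. Subcluster s6 had the highest Ptch1, 3454 and 3545 CPM, and s2 and s8 the highest Shh, where their intervals overlapped with those of s4.

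Within floor plate-like cluster 16, cells with a Shh UMI had less Ptch1 than cells without. In wild-type, Ptch1 was 906 CPM (729 to 1112) in 63 cells with a Shh UMI and 1569.7 CPM (1431 to 1719) in 233 without, at median depths of 1311 and 1161 UMIs. In Usb1-null it was 1511 CPM (1372 to 1661) in 110 cells with and 2149.5 CPM (2025 to 2279.5) in 202 without, at 2217 and 2344 UMIs. In cluster 18 the levels ran the other way and the intervals overlapped, at 829 CPM (581 to 1148) with and 522 CPM (441 to 614) without in wild-type, and 735 CPM (621 to 865) and 684 CPM (625 to 746) in Usb1-null. In the small cluster 24 the direction differed between the libraries, at 898 CPM (563 to 1359.8) in 13 cells with and 1096 CPM (583 to 1873) in 9 without in wild-type, and 1687 CPM (1371 to 2054) in 19 and 965 CPM (540.2 to 1592) in 6 in Usb1-null. Over the 3 sources together the intervals overlapped, at 885 CPM (749 to 1039) with and 1065 CPM (983 to 1151) without in wild-type, and 1247 CPM (1155 to 1345) and 1284 CPM (1223 to 1348) in Usb1-null.

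Ptch1, the receptor (ENSMUSG00000021466, chr13:63508328-63573598, minus strand), was highest in floor plate-like cluster 16, at 1402 CPM (1288 to 1524) and 1922 CPM (1828 to 2021). Splanchnic mesoderm-like cluster 9, led by the mesenchyme genes Fendrr and Foxf1, was next with 1168 CPM (1101 to 1237) and 1614 CPM (1552 to 1678). Among clusters with at least 100 cells per library, these levels stood apart from each other and from that of cluster 10 (772 and 938 CPM), whose leading genes include Ebf1 and Ebf2. The small cluster 24 held 963 CPM (670.5 to 1339) and 1536 CPM (1267 to 1845). The hindbrain and spinal cord progenitor-like clusters 13 (678 and 776 CPM) and 0 (645 and 723 CPM) and the somite and sclerotome-like cluster 1 (541 and 664 CPM) lay further down. Of 22 pairs of neighbors in the order of Ptch1 levels, 2 and 3 had separate intervals.

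The lowest Ptch1 was in limb and body wall mesenchyme-like cluster 7 in wild-type, at 166 CPM (145 to 189.5), and in cardiomyocyte-like cluster 12 in Usb1-null, at 245 CPM (219.7 to 272). Erythroid-like cells held 317 CPM (277 to 361) and 333 CPM (279 to 394). A Ptch1 UMI was in 23.0% (19.7 to 26.5) and 41.1% (34.0 to 48.4) of them against 35.5% (34.7 to 36.2) and 55.6% (54.8 to 56.5) of all cells, and after thinning in 11.6% (9.19 to 14.5) and 11.1% (6.97 to 16.4) against 18.4% (17.8 to 19.0) and 22.6% (21.9 to 23.3). Levels below that of erythroid-like cells, as in clusters 3, 5, 7, 12 and 21 of both libraries, are not read as expression. Without called doublets the erythroid-like level was 215 and 310.4 CPM, and clusters 7, 12 and 21 remained below it in both libraries. A930032L01Rik overlaps Ptch1 on the same strand in the annotation, as Gm13717 does Smo, Mir3081 does Boc, Gm25630 does Cdon and Gm48343 does Gli3, so that reads there may be shared.

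Hhip, which encodes a membrane protein that binds and traps ligand (ENSMUSG00000064325, chr8:79965851-80058006, minus strand), was highest in splanchnic mesoderm-like cluster 9, at 144 CPM (122 to 170.3) and 176 CPM (156 to 198), which is 5.23 and 6.01 times the level in all other cells. The second highest was cluster 1 in wild-type, at 66.3 CPM (55.8 to 78.3), and cluster 10 in Usb1-null, at 69.6 CPM (57.3 to 83.6), and both intervals were apart from that of cluster 9. In floor plate-like cluster 16, where Ptch1 was highest, Hhip was 40.2 CPM (23.0 to 65.3) and 33.6 CPM (22.1 to 48.8), intervals that hold the 33.1 and 36.6 CPM of the cells outside the sources.

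Smo, which encodes the transducer held inactive by Patched1 (ENSMUSG00000001761, chr6:29735503-29761365, plus strand), had the narrowest range across clusters. From erythroid-like cells (133 and 117 CPM) to the shallow cluster 8 (335 and 302 CPM) its level spanned 2.52-fold and 2.59-fold, where that of Ptch1 spanned 8.44-fold and 7.85-fold. Without called doublets the erythroid-like level was 76.9 and 110.2 CPM and the spans were 4.36-fold and 2.74-fold. None of its 22 pairs of neighbors had separate intervals in either library.

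Boc and Cdon encode cell surface co-receptors that bind ligand. Boc (ENSMUSG00000022687, chr16:44485049-44558897, minus strand) was highest in roof plate and dorsal neural tube-like cluster 6, at 356 CPM (323 to 391) and 319 CPM (295 to 345), followed by hindbrain and spinal cord progenitor-like cluster 0 in wild-type, at 295 CPM (269.98 to 323), and by somite and sclerotome-like cluster 1 in Usb1-null, at 277 CPM (259 to 296). Cdon (ENSMUSG00000038119, chr9:35421128-35507652, plus strand) was highest in cluster 6, at 564 CPM (523 to 608) and 506 CPM (475 to 539), and in cluster 21, whose leading genes include Lmx1a and Tbx2, at 628 CPM (528 to 742) and 506 CPM (433 to 588). These Cdon intervals overlapped.

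Both co-receptors were lower in the pooled sources than outside them. In clusters 16, 18 and 24 together Boc was 60.9 and 33.0 CPM against 145 and 141 CPM, a fold of 0.419 (0.306 to 0.561) and 0.234 (0.178 to 0.302). Cdon was 136 and 137 CPM against 248 and 225 CPM, a fold of 0.550 (0.448 to 0.668) and 0.609 (0.535 to 0.692). In cluster 24 alone the Cdon fold was 0.887 (0.383 to 1.75) and 1.08 (0.638 to 1.70), with intervals around 1, so that the lower Cdon rests on clusters 16 and 18. In erythroid-like cells Boc was 52.4 and 24.8 CPM and Cdon 87.7 and 59.6 CPM, and without called doublets 20.5 and 14.5 CPM and 30.7 and 46.4 CPM.

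Gli1, an activator whose own gene responds to the pathway (ENSMUSG00000025407, chr10:127329882-127341974, minus strand), was sparse, with 488 and 1040 UMIs. Among clusters with at least 100 cells per library it was highest in splanchnic mesoderm-like cluster 9, at 54.3 CPM (40.7 to 71.0) and 81.6 CPM (68.1 to 97.0). Clusters 10 (42.4 and 47.4 CPM), 13 (40.1 and 69.7 CPM), 1 (38.4 and 43.6 CPM) and 0 (35.2 and 51.6 CPM) took the next ranks in both libraries, and 0 neighboring pairs had separate intervals. Erythroid-like cells held 15.6 CPM (7.77 to 27.9) and 29.8 CPM (15.4 to 52.0), and 7.69 and 20.3 CPM without called doublets, on 3 and 7 UMIs. Cluster 24 had 2 and 8 Gli1 UMIs, at 55.0 CPM (6.66 to 199) and 108 CPM (46.5 to 212).

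Gli2, the main activator (ENSMUSG00000048402, chr1:118834132-119053619, minus strand), was highest in splanchnic mesoderm-like cluster 17 in wild-type, at 415 CPM (354 to 484), and in limb and body wall mesenchyme-like cluster 7 in Usb1-null, at 381 CPM (355 to 409.5). The order at the top was not resolved, and in Usb1-null the somite and sclerotome-like cluster 1 (388 and 360.3 CPM) and the hindbrain and spinal cord progenitor-like cluster 13 (348 and 351 CPM) lay between clusters 7 and 17. Its lowest level among the compared clusters was in floor plate-like cluster 16, at 37.7 CPM (21.1 to 62.2) and 57.2 CPM (41.8 to 76.2), below the 83.5 and 64.5 CPM of erythroid-like cells, though above their 30.7 and 40.6 CPM without called doublets. In the sources together Gli2 was 47.7 and 67.7 CPM against 268 and 250.2 CPM outside, a fold of 0.178 (0.124 to 0.246) and 0.271 (0.225 to 0.323).

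Gli3, which acts mainly as a repressor (ENSMUSG00000021318, chr13:15463235-15730026, plus strand), was highest in forebrain and optic neuroepithelium-like cluster 4, at 1509.6 CPM (1452 to 1569) and 1357 CPM (1309.9 to 1404). Midbrain-like cluster 11 (1112 and 1057 CPM) and roof plate-like cluster 6 (1052 and 992 CPM) came next and overlapped with each other. Floor plate-like cluster 16 was again low, at 226 CPM (182 to 278) and 198 CPM (168 to 231), and the fold of all sources over the other cells was 0.422 (0.371 to 0.479) and 0.449 (0.413 to 0.487). In the sources Smo, by comparison, was 1.00 (0.860 to 1.16) and 0.916 (0.823 to 1.02) times its level outside, with both intervals around 1, and Ptch1 was 2.27 (2.11 to 2.44) and 2.27 (2.17 to 2.37) times. In the small cluster 24 alone Smo was 2.04 (1.21 to 3.22) and 0.969 (0.554 to 1.57) times its level outside, on 18 and 16 UMIs.

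**Figure D3:**
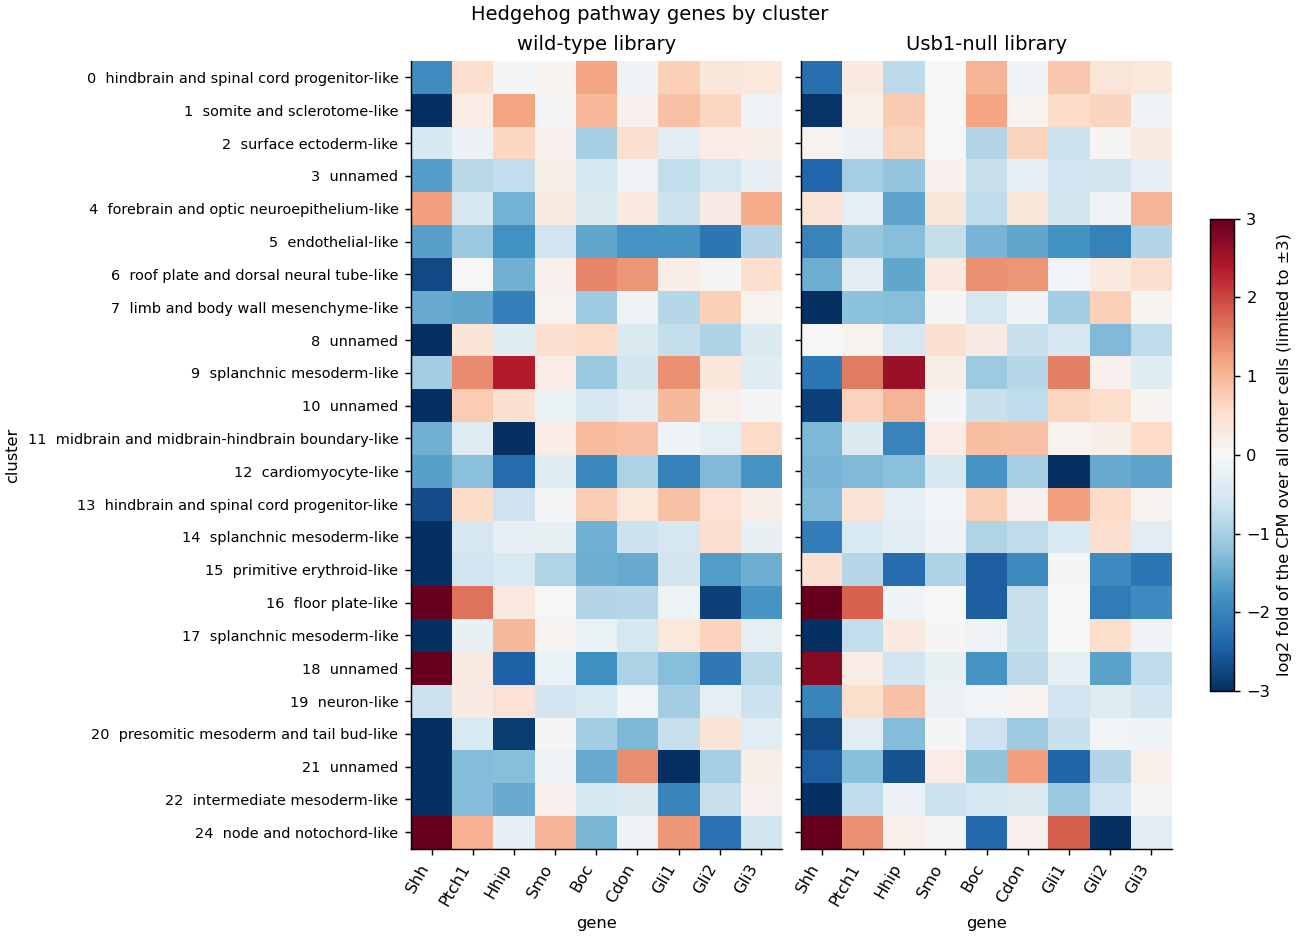
Log2 fold of each gene's CPM in a cluster over all other cells of the same library (color, limited to ±3), for the 23 compared clusters and cluster 24, with 1 panel per library. Shh was raised in clusters 16, 18 and 24, Ptch1 in 16, 9 and 24, Hhip and Gli1 in 9 and Gli3 in 4, and Gli2 and Gli3 were low in 16.

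**Figure D4:**
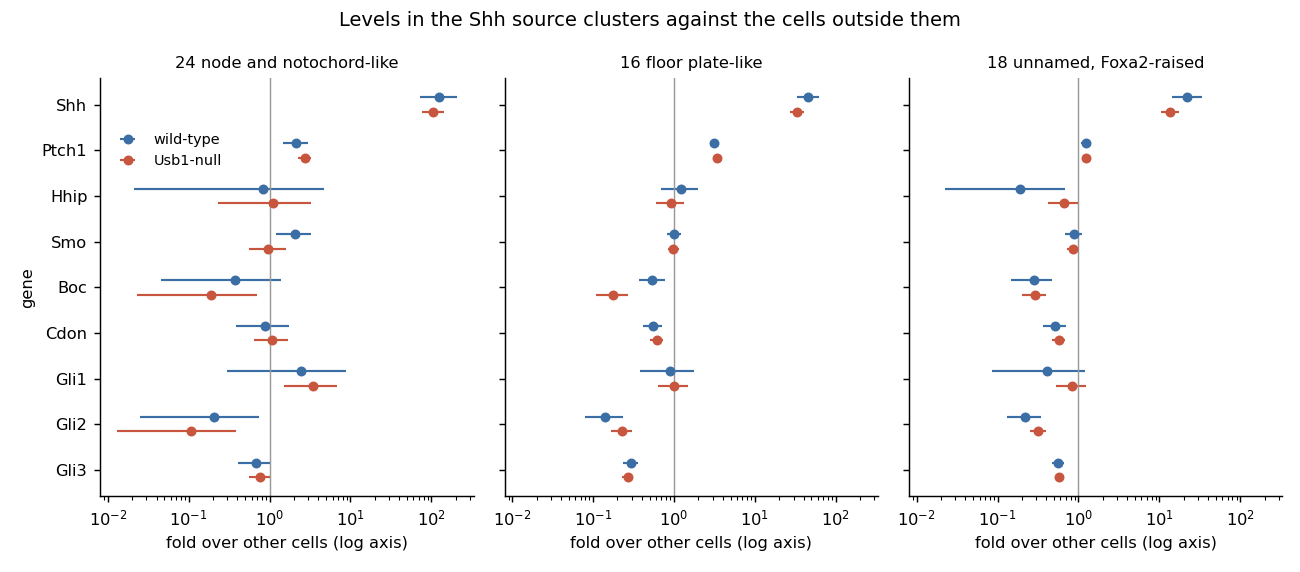
Fold of each gene in clusters 24, 16 and 18 over the cells outside all 3 (log axis), with points for each library, bars for exact 95% counting intervals and a line at equal levels. Shh lay 13.6 to 125 times above the other cells and Ptch1 1.24 to 3.42 times, and Gli2 and Boc lay below them.

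With at least 20 UMIs over both libraries asked for, the 9 genes were raised in 13 of 193 gene and cluster pairs (6.74%), where over all genes the share was 3.83%. These pairs were Ptch1 in clusters 16, 9 and 24, Shh in 16, 18 and 24, Boc in 6 and 0, Cdon in 6 and 21, Hhip and Gli1 in 9, and Gli3 in 4. Gli2 and Smo were raised in none.

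Levels over the 23 clusters correlated between the libraries, with Pearson's r of log2(CPM + 1) from 0.76 for Hhip to 0.97 for Cdon. Across clusters, which share libraries and depth, Ptch1 went most with Gli1 (r = 0.67 and 0.70) and Hhip (0.57 and 0.68). Gli3 went with Gli2 (0.70 and 0.77) and Cdon (0.72 and 0.72). Shh and Gli2 ran opposite to each other, at −0.47 and −0.58.

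Of 10751 genes with at least 200 UMIs per library, those most like each Hedgehog gene were ranked by the lower of their r in the libraries. For Ptch1 they included Cxxc4 (r = 0.63 and 0.66) and Nkx6-1, a ventral neural tube factor (0.63 and 0.67). For Shh they were 9030622O22Rik (0.83 and 0.80), Pias1 (0.66 and 0.75) and Vit (0.61 and 0.72). Gas1, a further co-receptor, was among those of Gli2 (0.82 and 0.69), behind Fndc3c1 (0.82 and 0.79) and Hdgfl3 (0.74 and 0.77). For Hhip they were Sncaip (0.58 and 0.56), 9130410C08Rik and Pkdcc, for Smo Arxes1 (0.80 and 0.80), Pgrmc1 and Gm47271, and for Boc Zmynd11 (0.72 and 0.72), Zic5 and Gm26771. For Cdon they were Fign (0.75 and 0.77), Zfhx4 and Greb1, for Gli1 Clspn (0.68 and 0.65), Pappa and Srcap, and for Gli3 Cachd1 (0.77 and 0.78), Ptn and Gja1.

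Among 43 other pathway genes, 14 were raised in a cluster: 1 of 2 ligands, 3 of 5 genes of ligand release, 1 of 3 receptors and co-receptors, 0 of 20 transducers and 9 of 13 targets. Of the 40 with 20 or more UMIs in a cluster these are 35%, near the 36.2% of all 14850 such genes. The ligand gene Ihh was 40.5 and 25.6 CPM in cluster 18. Scube2, whose secreted product helps release ligand, was 277 and 223 CPM in hindbrain and spinal cord progenitor-like cluster 0, and Scube1 was 541 and 577 CPM in forebrain-like cluster 4. Scube3 had its highest fold in limb and body wall mesenchyme-like cluster 7, at 58.9 and 91.8 CPM, and the receptor gene Lrp2 in cluster 4, at 238 and 266 CPM.

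In floor plate-like cluster 16, the ventral neural tube factors Nkx2-2 (37.7 and 39.8 CPM), Nkx2-9 (27.6 and 44.7 CPM), Nkx6-1 (133 and 78.3 CPM) and Nkx6-2 (40.2 and 48.5 CPM) had their highest fold. Olig2, a motor neuron progenitor factor, had its own in cluster 0 (31.6 and 27.8 CPM). Pax1, a sclerotome factor, was 60.6 and 43.0 CPM in somite and sclerotome-like cluster 1, and Pax9 was 48.6 and 62.8 CPM in surface ectoderm-like cluster 2. The mesenchyme factors Foxf1 (75.8 and 94.9 CPM) and Foxf2 (7.17 and 12.0 CPM) peaked in splanchnic mesoderm-like cluster 9, where Ptch1, Hhip and Gli1 were also raised.

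To ask whether the libraries differed in the pathway, their levels were first compared over all kept cells. Shh was 10.3 CPM (8.96 to 11.7) and 16.3 CPM (14.98 to 17.8), a Usb1-null to wild-type ratio of 1.59 (1.36 to 1.87). It was 1 of 9 genes at least 1.5-fold higher, where 6.95% of the 15031 genes with 100 or more UMIs were. None of the 9 was at least 1.5-fold lower, where 5.43% of all genes were. Ptch1 was 471 CPM (462 to 481) and 600.1 CPM (592 to 608), a ratio of 1.27 (1.24 to 1.30). Gli1 was 22.5 CPM (20.5 to 24.5) and 31.2 CPM (29.3 to 33.1), a ratio of 1.39 (1.24 to 1.55), and Hhip was 32.9 CPM (30.5 to 35.4) and 36.2 CPM (34.2 to 38.3), a ratio of 1.10 (1.00 to 1.21).

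The other 5 genes had ratios below 1, of 0.910 (0.879 to 0.943) for Smo, 0.952 (0.909 to 0.997) for Boc, 0.902 (0.871 to 0.935) for Cdon, 0.922 (0.891 to 0.954) for Gli2 and 0.946 (0.928 to 0.966) for Gli3. The median ratio was 0.952 over the 9 genes and 0.992 over all genes tested. Counting intervals left out 1 for all 9, with 4 above and 5 below. They did so for 4162 of the 15031 genes above and 4661 below, so that such an interval does not set a gene apart here.

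Within the sources, the Shh levels of the libraries had overlapping intervals. In clusters 16, 18 and 24 together Shh was 173 and 180.1 CPM, a ratio of 1.04 (0.845 to 1.28), and by cluster the ratio was 1.14 (0.875 to 1.51) in 16, 0.973 (0.639 to 1.52) in 18 and 1.32 (0.779 to 2.33) in 24. Cell make-up within them was unequal, since the yolk sac and hepatic endoderm-like subclusters s7 and s9 held 11 and 63 cells with 0 and 1 Shh UMIs. Without these, an alternative chosen after the values were seen, the ratio was 1.11 (0.728 to 1.73) in 18 and 1.11 (0.906 to 1.37) in the sources together. The unnamed subcluster s0 and the gut-like subcluster s3 had ratios of 1.43 (0.672 to 3.39) and 1.199 (0.658 to 2.25). Subcluster s5, with gut markers raised, had 1.15 (0.463 to 3.44), but 54.9% of its cells were called doublets and its median depths were 2353 and 4814 UMIs. The floor plate-like subclusters were divided, with ratios of 0.844 (0.324 to 2.35) in s1 and 0.458 (0.150 to 1.40) in s6. In s2 and s8 the ratios were 1.43 (0.951 to 2.18) and 1.33 (0.631 to 2.99). Clusters 16, 18 and 24 made up 3.55% and 5.13% of the cells. With the cluster shares of the wild-type library given to both, the ratio over all cells was 1.35. In the cells outside the sources it was 1.57 (1.23 to 2.03), on levels of 4.39 and 6.91 CPM. The Usb1-null level there lay below the background of 22.3 CPM, or 14.5 CPM without called doublets. In surface ectoderm-like cluster 2, where the Usb1-null level lay within the background interval, the ratio was 2.31 (1.26 to 4.53). Fewer cells of a type and less RNA per cell cannot be told apart in sums over a whole library.

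Ptch1 was higher in the Usb1-null library in 22 of the 23 clusters compared, with a median ratio of 1.24. Its interval lay above 1 in 17 clusters and below 1 in 0. No share over all genes was taken for such interval counts by cluster, here or for Gli1. In 16 clusters Ptch1 lay above the erythroid-like level in both libraries, a limit set after the values were seen. Of these, 15 were higher in Usb1-null, 13 with an interval above 1, and the median ratio was 1.24. Among the 16 the ratio ranged from 0.907 (0.745 to 1.11) in splanchnic mesoderm-like cluster 17 to 1.55 (1.32 to 1.82) in neuron-like cluster 19 (556 and 860.3 CPM). Ratios of 1.59 (1.35 to 1.87) in limb and body wall mesenchyme-like cluster 7 (166 and 263 CPM) and 1.88 (1.27 to 2.85) in intermediate mesoderm-like cluster 22 (191 and 358 CPM) rest on levels at or below background in at least 1 library. Sources and other cells had ratios of 1.24 (1.14 to 1.35) and 1.24 (1.21 to 1.27). Erythroid-like cells, the background measure, had 1.05 (0.841 to 1.31), and 1.44 (1.07 to 1.94) without called doublets, when the same 16 clusters lay above their level. Of 2226 genes compared in all 23 clusters, 255 (11.5%) had as large a share of ratios above 1.

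Gli1 could be compared in 10 clusters and was higher in the Usb1-null library in all 10, with a median ratio of 1.47. The interval lay above 1 in 3 of them, with 1.47 (1.07 to 2.03) in cluster 0, 1.504 (1.08 to 2.11) in cluster 9 and 1.74 (1.09 to 2.86) in cluster 13. Clusters 0, 1, 9, 10, 11 and 13 were the 6 above the erythroid-like level in both libraries, with a median ratio of 1.48. Erythroid-like cells themselves, on 11 and 12 UMIs, had a Gli1 ratio of 1.91 (0.773 to 4.79). Without called doublets their level lay below that of all 10 clusters in both libraries. Of 7997 genes compared in at least 10 clusters, 309 (3.86%) were higher in every one. This share is not like for like, since 2226 of these genes had to be higher in all 23 clusters. A higher Usb1-null level also helps a cluster to reach the limit of 50 UMIs, as in cluster 11 with 16 and 50 UMIs. Hhip was higher in 6 of its 11 clusters and had an interval above 1 in cluster 10 alone, at 1.54 (1.09 to 2.20).

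**Figure D5:**
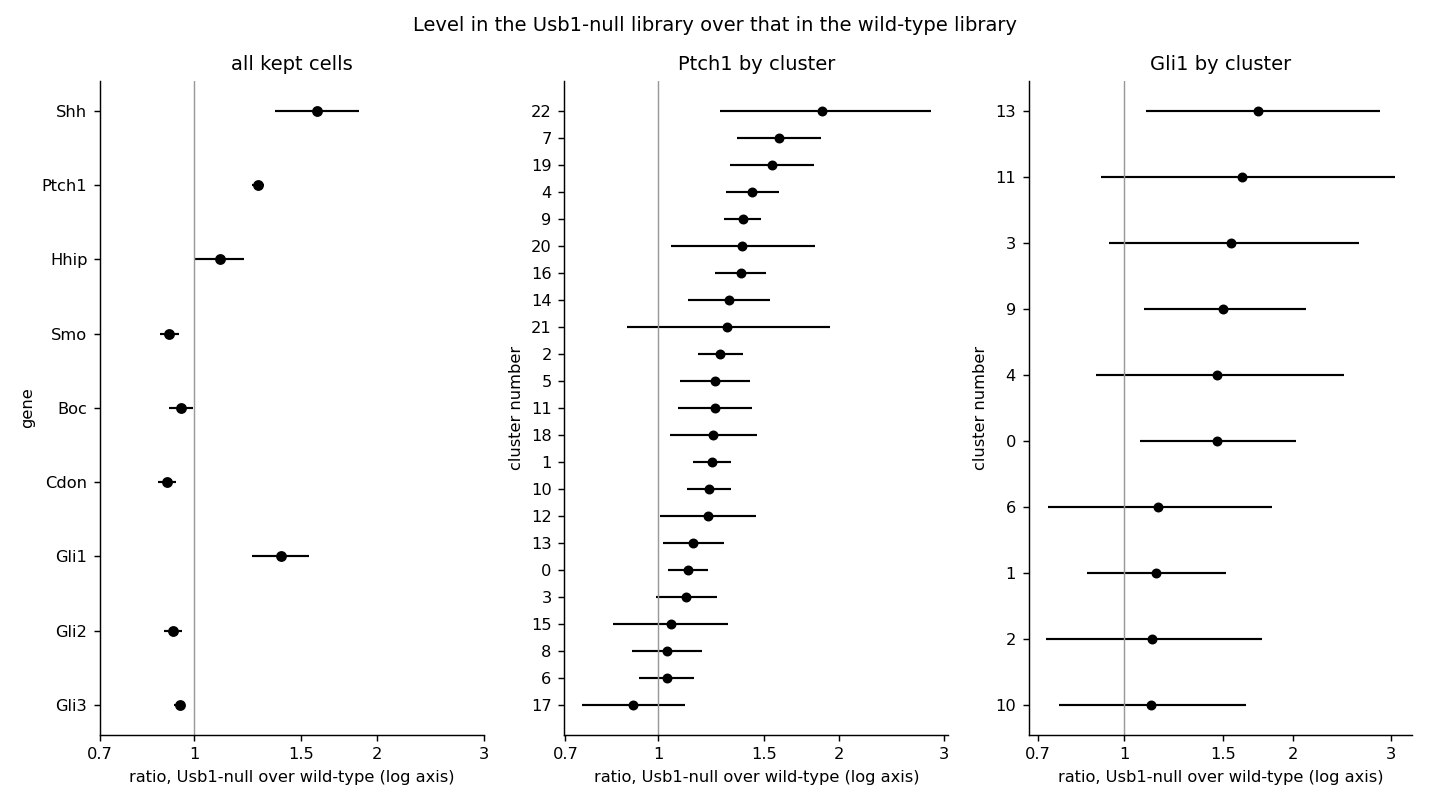
Ratio of the Usb1-null to the wild-type level (log axis) with exact 95% counting intervals, for the 9 genes over all kept cells (left) and for Ptch1 and Gli1 in each cluster compared (middle and right). Shh, Ptch1, Hhip and Gli1 lay above 1 over all cells, and Ptch1 lay above 1 in 22 of 23 clusters and Gli1 in 10 of 10. In 16 and 6 clusters the levels were above those of erythroid-like cells in both libraries, and 15 and 6 of these ratios lay above 1.

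Over the 9 genes, 161 gene and cluster pairs had at least 50 UMIs. In 11 pairs (6.83%) the Usb1-null level was at least 1.5-fold higher, where 6.22% of all gene and cluster pairs were, and in 4 (2.48%) at least 1.5-fold lower, where 8.01% were. The higher pairs were Gli1 in clusters 3, 9, 11 and 13, Ptch1 in 7, 19 and 22, Hhip in 5 and 10, Shh in 2 and Gli2 in 16. Among them the interval included 1 for Gli1 in 3 and 11, Hhip in 5 and Gli2 in 16. In 5 of the 11 the level was above that of erythroid-like cells in both libraries, namely Gli1 in 9, 11 and 13, Ptch1 in 19 and Hhip in 10, and the levels of the other 6 were at or below background in at least 1 library. Against the erythroid-like level without called doublets, 8 of the 11 lay above in both, with Gli1 in 3, Shh in 2 and Gli2 in 16 added.

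Of the lower pairs, Boc in floor plate-like cluster 16 rested on 31 and 20 UMIs, at 77.9 CPM (52.9 to 111) and 24.9 CPM (15.2 to 38.4), a ratio of 0.319 (0.172 to 0.578). The Usb1-null level equalled that of erythroid-like cells, where Boc was 52.4 and 24.8 CPM, a ratio of 0.474 (0.210 to 0.972), though without called doublets it was 20.5 and 14.5 CPM there. Over all sources the Boc ratio was 0.543 (0.363 to 0.815) and outside them 0.973 (0.929 to 1.02). Gli3 in erythroid-like cluster 15 was 282 and 161 CPM, a ratio of 0.573 (0.426 to 0.762), in 601 and 190 cells. Without called doublets the direction turned, at 61.5 and 133 CPM and a ratio of 2.17 (1.30 to 3.72). Smo in intermediate mesoderm-like cluster 22 was 266 and 143 CPM, a ratio of 0.536 (0.351 to 0.820), and Gli2 in presomitic mesoderm and tail bud-like cluster 20 was 342 and 228 CPM, a ratio of 0.665 (0.484 to 0.916).

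Of the 43 other pathway genes 38 could be compared over all cells, with a median ratio of 1.05. At least 1.5-fold higher was 1 gene, Nkx2-9 (2.44 and 4.22 CPM), with a ratio of 1.73 (1.254 to 2.42). At least 1.5-fold lower was 1, Prkaca (28.4 and 18.4 CPM), which encodes a catalytic subunit of protein kinase A and had a ratio of 0.648 (0.578 to 0.726). The 10 targets compared were divided, with 7 ratios above 1 and a median of 1.09. Foxf1 (5.98 and 8.84 CPM) had a ratio of 1.48 (1.198 to 1.83), whereas Pax1 (8.60 and 6.201 CPM) had one of 0.721 (0.588 to 0.883) and Nkx6-1 (15.9 and 12.2 CPM) one of 0.770 (0.665 to 0.891).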

How the data were processed

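The authors deposited raw UMI counts, which Cell Ranger 6.1.2 wrote per the file headers and which are not normalized. The submitters' processing notes name Cell Ranger 2.1.1 and the build mm10, and the sources used here do not say whether intronic reads were counted. The libraries held 15162 wild-type and 13034 Usb1-null barcodes, with 21751961 and 33775852 UMIs and at least 500 UMIs each. Cells with 200 to 6000 detected genes and under 30% mitochondrial UMIs were kept, the study's stated filter. The cell number that the study states for wild-type is lower than the barcodes and the kept cells, and that for Usb1-null equals the barcodes. Coordinates are from GENCODE M21 (GRCm38), which held 32158 of 32285 gene identifiers.

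For clustering in Scanpy 1.11.5, log values of counts scaled to 10000 were used for 2000 variable genes. These were picked jointly over both libraries, without mitochondrial, ribosomal protein, sex-linked (Xist, Tsix, Y) and the listed pathway genes. On 30 principal components, differences between libraries were removed by Harmony (written in NumPy 2.4.6, 50 soft clusters), and Leiden clusters (leidenalg 0.10.2, resolution 1.2) were found in a graph of 15 neighbors. Foxa2-raised clusters were clustered again at 1.0. Names ending in "-like" went to 21 of 27 clusters, from the marker list with the most raised markers, at least 3, unless another list led among the 10 leading genes. That naming was settled with the clusters in view, and rebuilt names can differ from the study's. Scrublet doublets, at an expected rate of 10%, made up 7.55% and 3.53% of cells and were kept.

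Summed UMIs were turned into CPM. Intervals are exact at 95%: Poisson for levels, Clopper-Pearson for shares and conditional binomial for ratios. To be counted, ratios needed 100 UMIs over both libraries, or 50 within a cluster, and clusters of 100 cells per library (23 of 27). Ratios given for the node and notochord-like cluster, for subclusters and for Gli1 and Boc in erythroid-like cells fell short of these minimums. They are descriptive and entered none of the counts of ratios. Other genes are named where they passed 1.5-fold or were raised, where they marked a source or the sex or blood content of a library, where they overlap a member, and as the 3 most like each member, of which 1 is not reported here; Foxf1, Pax1 and Nkx6-1 were raised. The 9 genes, the lists and the comparisons were chosen with earlier results of these data known. The calculations were tested on simulated data. Alternatives changed the cells kept, scaling, cell composition, depth, limits and clustering.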

Additional observations from a re-analysis of the deposited data

Results flagged for a closer look

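For 2 genes the ratio of Usb1-null to wild-type lay on opposite sides of 1 in different clusters, with neither counting interval reaching 1. Boc, the co-receptor gene, had a ratio of 1.37 (1.06 to 1.78) in limb and body wall mesenchyme-like cluster 7 and of 0.319 (0.172 to 0.578) in floor plate-like cluster 16, where the Usb1-null level of 24.9 CPM equalled the 24.8 CPM of erythroid-like cells, whose own Boc ratio was 0.474 (0.210 to 0.972), and lay above their 14.5 CPM once called doublets were left out. Gli2 had a ratio of 1.24 (1.03 to 1.49) in midbrain-like cluster 11 and of 0.665 (0.484 to 0.916) in presomitic mesoderm and tail bud-like cluster 20. The difference between clusters was not tested, since there is 1 library per genotype.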

How the results depend on the processing

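No paired analysis was possible because each genotype has 1 library, and for the same reason no library could be left out. The number of genes past 1.5-fold over all cells, 1 as reported, was 0 with the cluster shares of the wild-type library in both and 3 with a lower fold limit, all higher. The count of gene and cluster pairs higher by 1.5-fold, 11 of 161 (6.83%, against 6.22% over all genes), was 18 of 179 (10.1% against 10.1%) with a minimum of 20 UMIs and 7 of 110 (6.36% against 6.46%) at a resolution of 0.4. The count of raised pairs, 13 of 193 (6.74% against 3.83%), was 5 of 193 (2.59% against 2.06%) at 3-fold, 6 of 131 (4.58% against 4.42%) at a resolution of 0.4 and 21 of 269 (7.81% against 3.59%) at a resolution of 2.0. The share of Shh UMIs in Foxa2-raised clusters was 55.8% in Usb1-null at a resolution of 0.4, and 58.7% in wild-type and 60% in Usb1-null with the notochord-like cluster, an alternative chosen after seeing the data. Leaving called doublets out of the erythroid-like cells, also chosen after seeing the data, turned their Gli3 ratio from 0.573 to 2.17, moved their Ptch1 ratio from 1.05 to 1.44 and raised the number of clusters with Gli1 above their level from 6 to 10. For these values the cause was not tested beyond what the setting changes by construction. None of the 9 ratios over all cells crossed 1 under the alternatives run. Of 72 ratios of single genes under 8 alternatives, 63 moved by less than their counting interval and 9 by more. Depth limits Shh and Gli1 most, with 223 and 488 UMIs in the wild-type library.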
